A study of Sus scrofa with 8 samples.

Results

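Olfactory receptor (OR) genes were examined in pig embryonic fibroblasts (PEFs) through the ChIP-seq peaks of H3K4me3, H3K27ac and CTCF. Of 28077 annotated genes on chromosomes 1 to 18 and X, 999 had a RefSeq product name containing the words "olfactory receptor" and were taken as members, and another 680 OR genes on 146 unplaced sequences were not analysed here. Members separated by gaps of at most 100 kb were joined into 85 clusters, which covered 22.4 Mb, or 0.935% of these chromosomes. Of the 999 starts, 974 had no peak of any mark within 1 kb in either replicate, a count that was not made over all genes. For H3K4me3 alone, 985 members and 12060 of all 28077 genes had no peak in either replicate. The counts were 986 and 13240 for H3K27ac and 986 and 22620 for CTCF. The density of peaks inside the clusters was 4.71 to 12.2 times lower than in the rest of the chromosomes.

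PEFs are fibroblasts grown from Large White pig fetuses aged 35 days, kept in culture for 24 h and left untreated. There was 1 group of cells with 2 replicates for H3K4me3 (antibody ab8580), 2 for H3K27ac (ab4729) and 2 for CTCF (A1133), and the input libraries were not analysed here. The labels do not say whether replicates came from separate fetuses, so the spread between them may be technical. Across the 6 lists there were 37932 to 81164 peaks, each with its fold enrichment over a control as computed by the authors with MACS2, and the lists carry no read counts, so that depth per peak is unknown.

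OR genes encode the G protein-coupled receptors with which olfactory sensory neurons detect odorants. They form the largest gene family of mammals, lie in tandem clusters, and are coded by a single exon that follows short untranslated exons. Class I receptors (families 51 to 56) descend from receptors also found in fish, and class II holds all other families. A mature olfactory neuron expresses a single OR gene from a single allele, while the other clusters are packed in heterochromatin. H3K4me3 marks promoters, H3K27ac marks active promoters and enhancers, and CTCF is the zinc finger protein that binds at loop anchors and domain boundaries.

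The members lay on 15 chromosomes, with 297 on chromosome 2, 289 on chromosome 9, 99 on chromosome 7 and 87 on chromosome 5. A family number could be read for 877, of which 169 were class I and 708 class II, and every class I gene was in 1 cluster on chromosome 9. The largest families were 2 with 136 genes, 52 with 92 and 4 with 88. Of the 85 clusters, 45 held at least 5 genes and together 927 members, and 20 were single genes. No member had the annotation type of a pseudogene, but 4 had a product worded as a pseudogene. These 4 are counted among the 999, and none had a peak of any mark. The annotation gives a product or description to 76 of its 2320 pseudogenes, so OR pseudogenes could not be told from others, and 263 pseudogenes of any kind started inside the clusters. The annotated start of 521 members was the first coding base, which means that no untranslated exon was modelled and the promoter may lie further upstream.

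H3K4me3 was found at the start of few OR genes. A peak lay within 1 kb of 12 members in replicate 1 and of 14 in replicate 2, and 12 had one in both, or 1.201% of members, whereas in both replicates it was found at 55.4% of all annotated genes and at 72.5% of protein-coding genes that are not OR genes. H3K27ac was found at 9 and 12 members and at 8 in both replicates, or 0.801%, against 50.1% of all genes and 63.9% of the other coding genes. CTCF was found at 12 members in each replicate and at 11 in both, or 1.101%, against 15.2% and 18.8%. When the summit in place of any base of the peak had to lie within 1 kb, 5 members had H3K4me3, 4 H3K27ac and 9 CTCF in both replicates. The summit rule was not applied to other genes, so these 3 counts have no background. The share of members with H3K4me3 was 1.30% ± 0.142 (SD, n = 2) and that of the other coding genes 73.3% ± 0.00765, so that the difference was above the spread between replicates for this mark. For CTCF the shares were 1.201% with no spread, at 12 members in each replicate, and 21.4% ± 3.05. With 2 libraries per mark an exact test cannot pass a threshold of 0.05, and none was run. In these bulk samples a mark carried by few cells and a weak mark in every cell cannot be told apart.

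The 12 members with H3K4me3 in both replicates corresponded to 9 separate starts. In 5 of the 12 members the peak of both replicates overlapped the stretch from 250 bases before to 50 after the annotated start, and in the other 7, putative OR2I1 and the models of family 4 among them, it did not reach this stretch in either replicate, and its nearest base lay 365 to 915 bp from the start. The sequences of these 5 stretches are given because they are the OR promoter windows that an H3K4me3 peak overlapped in both replicates. They are written 5′ to 3′ on the gene's strand, read from Sscrofa11.1, with CpG dinucleotides in capitals. LOC100737531, OR51E1, is at chr9:5492723-5493022 and LOC106509673, OR7A17-like, at chr3:17058589-17058888, both on the minus strand. LOC100152956, OR6C74-like, is at chr14:90906916-90907215 and LOC110257705, OR10V1-like, at chrX:125122744-125123043, both on the plus strand, and LOC110260127, OR1F12-like, is at chr3:6594467-6594766 on the minus strand. The last 2 lines are receptors without a peak of any mark, for contrast. LOC100737577, OR51D1, at chr9:5490928-5491227 on the minus strand, has its start closest to that of OR51E1 among those with an untranslated first part, and LOC100625684, OR51E2, is at chr9:5430848-5431147 on the plus strand.
LOC100737531: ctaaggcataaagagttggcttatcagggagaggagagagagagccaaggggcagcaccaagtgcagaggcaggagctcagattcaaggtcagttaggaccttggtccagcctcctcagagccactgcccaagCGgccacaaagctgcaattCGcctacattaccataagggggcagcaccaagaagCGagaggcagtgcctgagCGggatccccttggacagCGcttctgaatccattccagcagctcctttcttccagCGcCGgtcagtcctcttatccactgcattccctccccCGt
LOC106509673: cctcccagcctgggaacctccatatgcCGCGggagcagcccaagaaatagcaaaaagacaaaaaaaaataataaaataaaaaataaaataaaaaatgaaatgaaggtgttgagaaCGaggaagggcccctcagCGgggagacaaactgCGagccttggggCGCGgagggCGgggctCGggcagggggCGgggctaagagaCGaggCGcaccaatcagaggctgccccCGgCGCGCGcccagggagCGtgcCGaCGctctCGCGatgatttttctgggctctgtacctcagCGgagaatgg
LOC100152956: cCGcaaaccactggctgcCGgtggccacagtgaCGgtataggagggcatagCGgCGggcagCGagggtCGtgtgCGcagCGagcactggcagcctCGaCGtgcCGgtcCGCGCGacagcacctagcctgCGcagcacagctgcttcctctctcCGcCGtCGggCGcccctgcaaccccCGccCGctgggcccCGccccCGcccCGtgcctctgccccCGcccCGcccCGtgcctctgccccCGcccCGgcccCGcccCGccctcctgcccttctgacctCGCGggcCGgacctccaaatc
LOC110257705: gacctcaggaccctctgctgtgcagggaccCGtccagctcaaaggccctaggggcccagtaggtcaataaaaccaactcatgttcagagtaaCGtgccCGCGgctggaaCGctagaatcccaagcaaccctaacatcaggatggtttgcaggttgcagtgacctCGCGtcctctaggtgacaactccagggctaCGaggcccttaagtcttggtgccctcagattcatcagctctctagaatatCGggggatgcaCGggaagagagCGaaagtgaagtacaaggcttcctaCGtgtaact
LOC110260127: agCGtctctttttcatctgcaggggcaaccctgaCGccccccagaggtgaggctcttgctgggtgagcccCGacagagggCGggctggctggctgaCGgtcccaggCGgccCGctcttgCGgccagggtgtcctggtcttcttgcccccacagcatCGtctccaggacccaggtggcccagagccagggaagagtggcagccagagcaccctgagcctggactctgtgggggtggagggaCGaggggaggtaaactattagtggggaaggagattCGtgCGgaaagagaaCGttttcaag
LOC100737577: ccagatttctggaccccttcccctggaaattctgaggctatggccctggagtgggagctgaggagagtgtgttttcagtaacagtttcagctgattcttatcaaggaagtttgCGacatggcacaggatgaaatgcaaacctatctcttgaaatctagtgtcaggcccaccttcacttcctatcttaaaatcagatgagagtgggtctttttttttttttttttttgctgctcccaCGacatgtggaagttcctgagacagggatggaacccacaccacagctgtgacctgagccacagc
LOC100625684: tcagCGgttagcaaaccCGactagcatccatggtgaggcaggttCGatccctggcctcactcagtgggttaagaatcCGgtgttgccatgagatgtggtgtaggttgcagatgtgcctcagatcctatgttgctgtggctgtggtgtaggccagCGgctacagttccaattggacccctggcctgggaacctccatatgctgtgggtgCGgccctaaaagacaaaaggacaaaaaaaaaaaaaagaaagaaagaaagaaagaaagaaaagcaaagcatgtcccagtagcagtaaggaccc

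These 5 sequences held 8, 22, 35, 12 and 13 CpG dinucleotides, and the 2 without a peak held 2 and 6. The 35 at OR6C74-like, which shares its promoter region with ALOX5, were the highest count of any member, and 3 of the 999 members, OR7A17-like included, had 22 or more. At least 8, 12 and 13 were held by 109, 41 and 36 members, most of them without H3K4me3. The 7 H3K4me3 members whose peak did not reach this stretch held 1 to 11. Only at OR7A17-like did the peak cover all 300 bases of the window in both replicates. The overlap was small at OR10V1-like, with 59 and 19 bases of the window in the peak. At OR1F12-like it was 231 and 95 bases.

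Across all members the promoters were poor in CpG. Their median GC content was 40% and their median observed over expected CpG ratio 0.176, against 59.7% and 0.676 in the other coding genes. A GC content of at least 55% together with a ratio of at least 0.6 was reached by 12 of 999 OR promoters, or 1.201%, and by 48.8% of the other coding promoters. Among the other coding genes without H3K4me3 in either replicate these medians were 49.7% and 0.278 and the CpG-rich share was 4.95%, so OR promoters stood below that set too. The EBF word CCCNNGGGA, a match to the consensus of the EBF factors of olfactory neurons, was present on either strand in 22 OR promoters, or 2.20%, and in 7.33% of all promoters of this length. None of the 12 H3K4me3 members had it, but only 2.23% of the 985 members without H3K4me3 did, so this does not set the 12 apart. The word is rich in C and G, and the median GC content over all promoters was 55%. The part of base composition in these shares was not tested. Since 521 starts are first coding bases, many of these windows may not be promoters.

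Putative OR2I1 (LOC106504234, chr7:22498071-22501106) had the highest H3K4me3 at a member's start, with fold enrichments of 42.7 and 20.9. The peaks were 1466 and 1652 bp wide, and their summits lay 1226 and 1350 bp from the annotated start. Its mean of 31.8 lay within the quartile range of the other coding genes with H3K4me3, 28.9 to 47.4. The nearest start of another gene was that of UBD, which encodes a ubiquitin-like modifier, at 4812 bp.

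OR51E1 (LOC100737531, chr9:5474586-5492772) is a receptor known from the prostate and other tissues outside the nose. It had H3K4me3 of 14.6 and 10.1, CTCF of 27.4 and 27.8, and H3K27ac in replicate 1 alone, at 2.54 with a −log10 q of 1.96, which is a q-value above 0.01. The CTCF summit of replicate 1 lay 67 bp and the H3K4me3 summit 170 bp from its start, and the closest start of another gene, TRIM68, was 10159 bp away. OR51E1 was the only class I member with H3K4me3 in both replicates among 169. Its relative OR51E2, also known outside the nose, had no peak of any mark.

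A start was shared by 4 gene models of family 4 on chromosome 2. LOC100522784 and LOC100523167 (both OR4X2-like), LOC100523534 (OR4B1-like) and LOC100523717 (OR4B1) begin within 12 bp of each other, at positions 14516233 to 14516245, and the longest of them spans 116 kb. They therefore share 1 H3K4me3 peak of 10.4 and 9.12 and 1 CTCF peak of 23.0 and 37.7, and an H3K27ac peak of 3.82 was listed in replicate 2 alone. The nearest start of a gene that is not an OR gene was 128656 bp away, and the nearest coding gene was PTPRJ, a receptor tyrosine phosphatase, at 208578 bp. These 4 models are 1 observation.

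The remaining members with H3K4me3 had lower values than OR51E1. OR7A17-like had 11.96 and 8.15, with CTCF of 7.39 and 5.88, and lay 1705 bp from the start of AHSP, the alpha-haemoglobin stabilising protein, whose own 1 kb window held the same CTCF peak. LOC100519633 (olfactory receptor-like protein OLF3, chromosome 18) had 9.37 and 4.64. LOC100152956 (OR6C74-like, chromosome 14) had 7.10 and 4.14 in a peak also assigned to ALOX5, which encodes 5-lipoxygenase and starts 82 bp away on the opposite strand. LOC110257705 (OR10V1-like, chromosome X) had 4.996 and 5.44, and was the only member with both H3K4me3 and H3K27ac in both replicates, the latter at 3.999 and 4.54. LOC100620717 (OR6-like, chromosome 14) had 5.74 and 3.70, and LOC110260127 (OR1F12-like, chromosome 3) had 4.92 and 3.21. The median over the 12 members was 9.75 as the mean of both replicates and 7.002 over the 9 separate starts, against 39.4 over the 13411 other coding genes with H3K4me3, and the median peak width was 710 bp against 2846 bp.

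**Figure D1:**
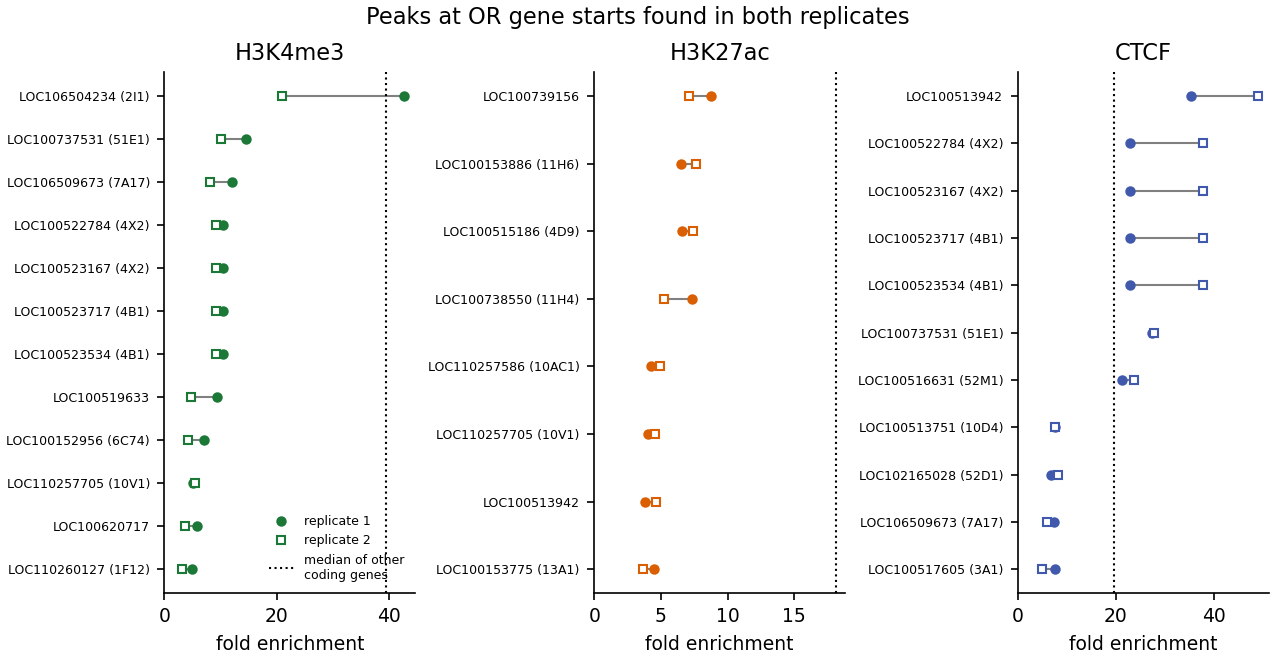
Fold enrichment over control (horizontal axis, linear) of the peak within 1 kb of the start for each OR gene with a peak in both replicates, with filled circles for replicate 1, open squares for replicate 2 and a dotted line at the median over other protein-coding genes with the mark (39.4 for H3K4me3, 18.1 for H3K27ac and 19.7 for CTCF). H3K27ac members all lie left of that line, H3K4me3 members lie left of it apart from replicate 1 of OR2I1, and CTCF members fall on both sides. The 4 models named 4X2 and 4B1 share 1 start.

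H3K27ac was found at 8 members in both replicates, and 1 of them had H3K4me3 in both replicates. LOC100738550 (OR11H4-like) and OR13A1, also among the 8, had H3K4me3 in replicate 2 alone, at 2.64 and 3.18. Overlaps of marks among other genes were not counted. For H3K27ac, LOC100739156 (OR143-like, chromosome 9) had 8.75 and 7.11 in peaks of 3080 and 3232 bp. LOC100153886 (OR11H6-like) had 6.49 and 7.62 and LOC100738550 (OR11H4-like) 7.35 and 5.24, both in the cluster of chromosome 7. LOC100515186 (OR4D9-like, chromosome 2) had 6.56 and 7.44. The remaining members, OR10AC1-like, OR10V1-like, OR148-like and OR13A1, had mean values of 4.06 to 4.59. The median over the 8 was 5.44, against 18.1 over the other coding genes with the mark, and the groups overlapped, since the lowest of those genes had 2.42.

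CTCF at OR starts was found on both sides of the median of the other coding genes. LOC100513942 (OR148-like, chromosome 9) had 35.3 and 49.0, followed by the shared start of family 4, OR51E1, and OR52M1 (LOC100516631) with 21.2 and 23.6. The 4 others, OR10D4 (LOC100513751), OR52D1-like (LOC102165028), OR7A17-like and OR3A1 (LOC100517605), had means between 6.29 and 7.61. The median over the 11 members was 27.6, against 19.7 over other coding genes with CTCF at the start. The shared peak of family 4 enters that value 4 times, and over the 8 separate starts the median was 14.997, below that of the other coding genes. Counts of members with H3K4me3, H3K27ac and CTCF in both replicates overlapped by 6 for H3K4me3 with CTCF, or 3 separate starts, by 1 for H3K27ac with CTCF and by 0 for all 3, and 23 members had at least 1 of the 3.

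All 3 marks were found at a larger share of members with several exons. Of 195 members with more than 1 exon, 10 had H3K4me3 in both replicates, or 5.13%, whereas 2 of the 804 with 1 exon did, or 0.249%. For CTCF the counts were 9 and 2, and for H3K27ac 4 and 4, or 2.05% and 0.498%. Since 4 of the 10 were the models with a shared start, these were 7 separate starts for H3K4me3 and 6 for CTCF. In clusters under 5 genes, H3K4me3 was found at 5 of 72 starts, or 6.94%, and in clusters of at least 5 genes at 7 of 927, or 0.755%. Class II had 9 of 708 and class I 1 of 169. Among the 263 pseudogenes that started inside the clusters none had a peak of any mark, while 4.91% of all 2320 pseudogenes had H3K4me3 in both replicates.

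Other receptors known outside the nose had no peak at the start. Those annotated were OR51E2, OR1D2 and OR6B1 with 1 gene each, OR2AT4 with 2, OR10H1 with 4 and OR1A1 with 9, and OR2A4 was not found by name. None of these 18 genes, among which those named -like are counted, had a peak of any mark in any library. The same held for 974 of all 999 members, so it does not set the 18 apart.

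Most OR genes were far from any peak that was found in both replicates. The median distance from an OR start to the nearest H3K4me3 summit of this kind was 171 kb, with a quartile range of 69.7 to 352 kb, against 0.580 kb for the other coding genes. For H3K27ac it was 152 kb against 0.732 kb, and for CTCF 98.8 kb against 9.97 kb. H3K4me3 was more than 100 kb away from 664 members, or 66.5%, and from 3.01% of the other coding genes.

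Inside the clusters there were 37 and 49 H3K4me3 peaks in replicates 1 and 2, 60 and 60 H3K27ac peaks, and 79 and 89 CTCF peaks. Per Mb this was 1.92 ± 0.380 (SD, n = 2), 2.68 with no spread and 3.76 ± 0.316. The rest of the chromosomes, 2361 Mb outside clusters and flanks, had 17.0 ± 1.67, 32.7 ± 1.82 and 17.7 ± 1.30 per Mb. The ratio of the rest to the clusters was 8.91 ± 0.891 for H3K4me3, 12.2 ± 0.678 for H3K27ac and 4.71 ± 0.0513 for CTCF. For each mark, both replicates were lower inside the clusters than either was outside. H3K4me3 peaks covered 0.193% and 0.251% of the clusters and 2.71% and 3.21% of the rest.

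**Figure D2:**
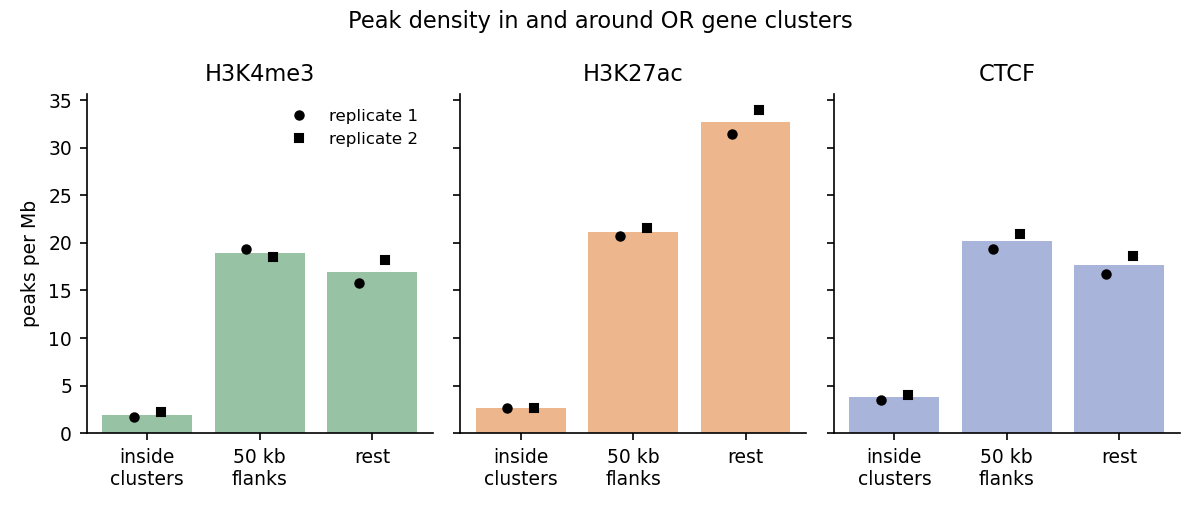
Peaks per Mb (vertical axis) inside the 85 OR clusters, in the 50 kb on either side and in the rest of chromosomes 1 to 18 and X, with bars for the mean of 2 replicates and points for each replicate. All 3 marks are lowest inside the clusters, and H3K27ac in the flanks, at 21.1 per Mb, lies between its values inside (2.68) and in the rest (32.7).

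Reads can be placed only where sequence is unique, and the study kept uniquely mapped fragments. Of sampled 100-base words, 86.0% occurred once in the assembly in the clusters, 94.8% in the flanks, 98.1% in the rest and 81.8% within 1 kb of OR starts. Counted per Mb of unique sequence, the densities in the clusters were 2.24, 3.12 and 4.37, and the rest remained 7.74, 10.7 and 4.13 times higher. The GC content of the clusters was 39.0%, against 41.9% in the rest. The part of GC content in the result was not tested.

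The flanks were below the rest of the chromosomes in H3K27ac, though above the clusters. In H3K4me3 and CTCF they were not below the rest. Within 50 kb outside the cluster edges there were 18.9 ± 0.666 H3K4me3, 21.1 ± 0.582 H3K27ac and 20.2 ± 1.08 CTCF peaks per Mb. Relative to the rest of the chromosomes, CTCF was at 1.14 ± 0.0226 times and H3K27ac at 0.646 ± 0.0181 times, and both replicates lay on the same side. H3K4me3 was at 1.12 ± 0.150 times, 1.23 in replicate 1 and 1.02 in replicate 2, so that it was not separated from the rest by more than the replicate spread. Of 133 other coding genes that started in the flanks, 78 had H3K4me3 in both replicates.

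For the 45 clusters of at least 5 genes the change across the edge was followed in steps. In the inner part, more than 100 kb from an edge, H3K4me3 was at 1.25 ± 0.161 peaks per Mb, H3K27ac at 2.31 ± 0.161 and CTCF at 2.84 ± 0.375. In the last 10 kb inside they were at 4.44 ± 1.57, 7.78 and 7.78 ± 1.57, which rest on 3 to 8 peaks per library. In the first 10 kb outside, they were at 13.9 ± 0.786, 16.1 ± 0.786 and 25 ± 2.36. CTCF then stayed between 21.9 and 26.4 out to 500 kb, whereas H3K4me3 rose to 35.3 ± 0.108 and H3K27ac to 46.2 ± 2.15 at 100 to 200 kb. CTCF thus changed little beyond the first 10 kb, and the histone marks were highest at 100 to 200 kb.

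**Figure D3:**
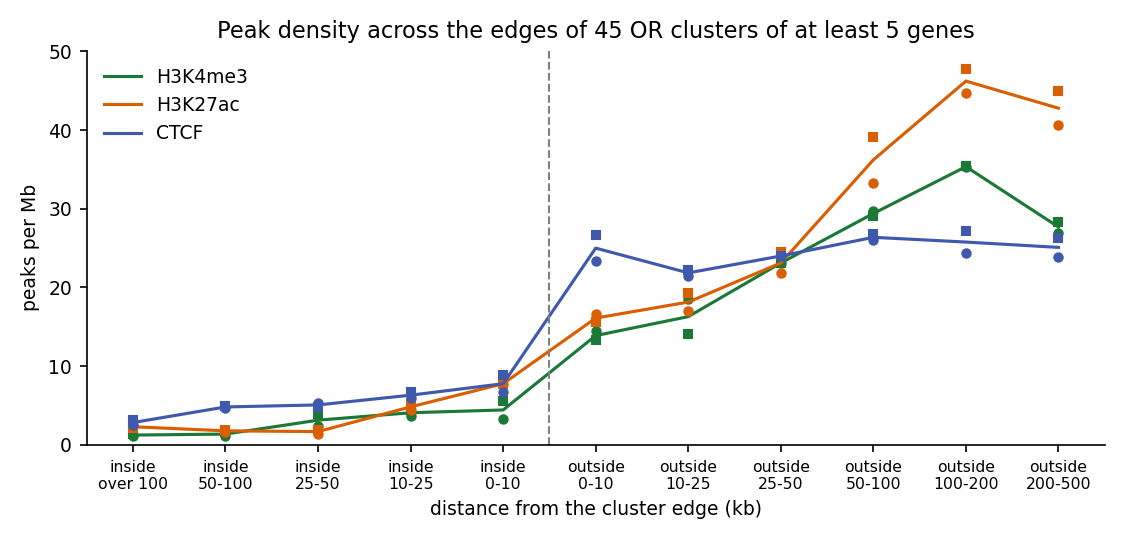
Peaks per Mb (vertical axis) by distance in kb from the nearest edge of the 45 OR clusters of at least 5 genes, inside (left of the dashed line) and outside, with circles for replicate 1, squares for replicate 2 and lines through the means. CTCF goes from 7.78 in the last 10 kb inside to 25 in the first 10 kb outside, and H3K27ac continues to rise from 16.1 to 46.2 at 100 to 200 kb.

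Of 384 bins of 50 kb lying wholly inside the clusters, 315, or 82.0%, had no peak in any of the 6 libraries, against 24.5% of the 47293 bins that touch no cluster. Stretches of at least 200 kb without any peak made up 14.0% of the chromosomes. They contained 652 members, or 65.3%, and 1.27% of the other coding genes. One of them on chromosome 2 (62602117 to 64586807) was 1985 kb long with 40 OR genes, and another on chromosome 5 (20280471 to 21060073) held 49 in 780 kb. The stretch of chromosome 7 from 78672263 to 79671629 held 42.

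Clusters differed widely among themselves. Of the 45 with at least 5 genes, 16, with 146 members in 4631 kb, had no peak in any library, and 29 had no H3K4me3 peak, 29 no H3K27ac peak and 20 no CTCF peak in either replicate. The median share of unique 100-base words was 90.0% in the 16 and 88.6% in the 29 others, and their median lengths were 301 and 368 kb. The 16 tie for the lowest density, and the ones with the most members were on chromosome 1 (263046286 to 263735113, 16 genes) and on chromosome 2 (63259040 to 63656541 with 15, and 62630428 to 63128709 with 14). A cluster of 6 genes between CD1.1 and CD1E, which encode lipid antigen presenting proteins, was also without a peak, as was one of 12 genes next to GABRR3 on chromosome 13.

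Among clusters of at least 5 genes, the highest densities, summed over the 6 libraries, were in small clusters. The cluster of chromosome 1 next to RECK (236584306 to 236742277, 9 genes) had 177 peaks per Mb, 28 in all, with 7 of CTCF in each replicate and 5 and 6 of H3K27ac. A cluster of 5 genes on chromosome 6 had 156, with 7 peaks in 45.005 kb. The cluster of OR2I1 on chromosome 7 beside GABBR1, a GABA receptor subunit, had 153, with 12 peaks in 78.3 kb. The rest of the chromosomes had means per library of 17.0 H3K4me3, 32.7 H3K27ac and 17.7 CTCF peaks per Mb. Summed over the 6 libraries, the rest was below each cluster named here.

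**Figure D4:**
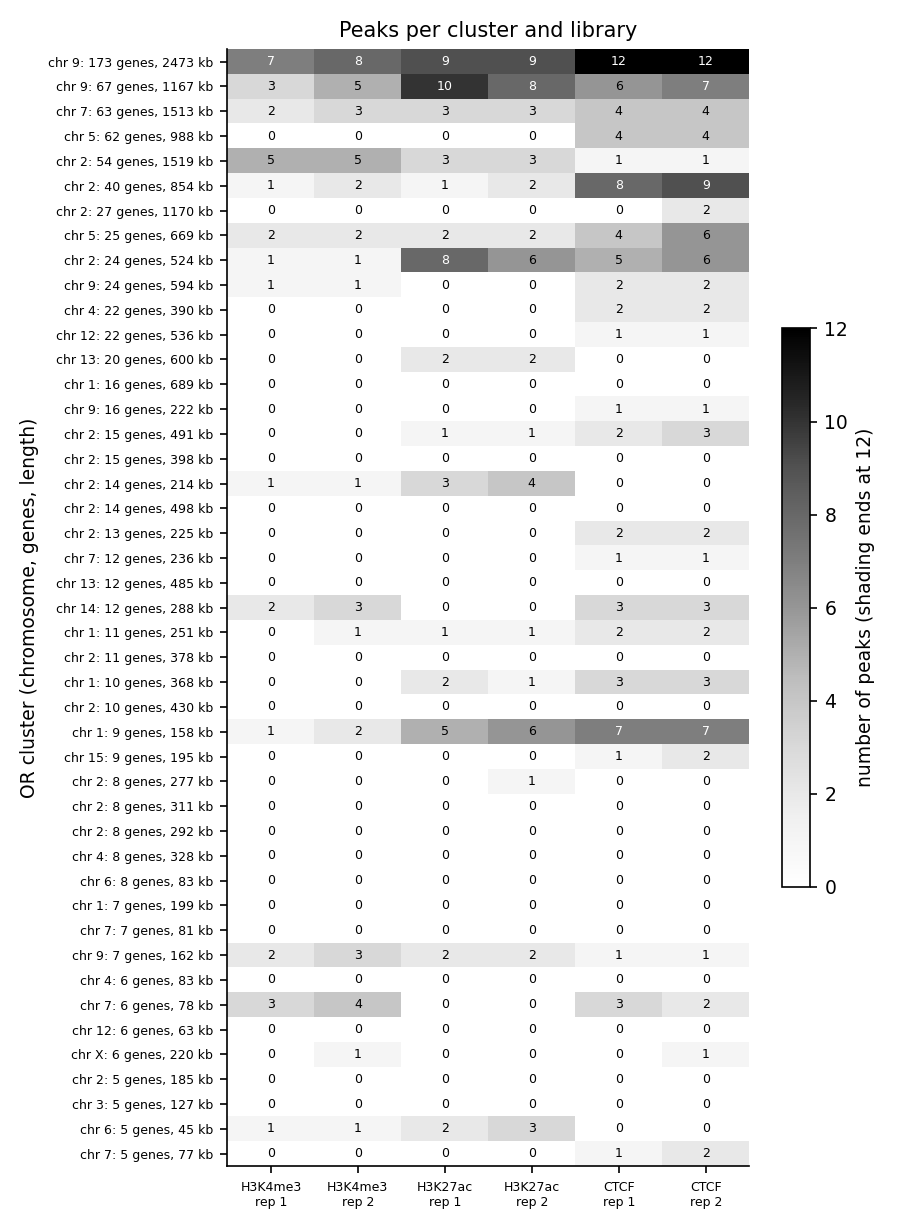
Number of peaks in each of the 6 libraries (columns) for the 45 OR clusters of at least 5 genes (rows, ordered by the number of genes and labelled with chromosome, genes and length), with the count printed in each cell. 16 rows are 0 throughout, and the cluster of chromosome 5 with 62 genes has 4 CTCF peaks in each replicate and no histone mark.

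The 6 clusters with the most OR genes held 459 members. The cluster of chromosome 5 (20112632 to 21100204, 62 genes) lay between NEUROD4 and METTL7B, and had 4 CTCF peaks in each replicate and no H3K4me3 or H3K27ac peak. The cluster of chromosome 2 next to PTPRJ (13695738 to 14549855, 40 genes), which holds the shared start of family 4, had 8 and 9 CTCF peaks with 1 and 2 of H3K4me3 and 1 and 2 of H3K27ac. The cluster of chromosome 2 at 67104948 to 68623744, with 54 genes and 7 other genes, had 5 H3K4me3 peaks and 3 H3K27ac peaks in each replicate and 1 CTCF peak in each. The cluster of chromosome 7 (78624867 to 80138194, 63 genes) had 2 and 3 H3K4me3 peaks, 3 and 3 of H3K27ac and 4 and 4 of CTCF. The second cluster of chromosome 9 (50612751 to 51779381, 67 genes) had 3 and 5 H3K4me3 peaks, 10 and 8 of H3K27ac and 6 and 7 of CTCF. The class I cluster, described next, had 7 and 8, 9 and 9, and 12 and 12 of the same marks. The replicates thus differed by at most 2 peaks in any of these 6.

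The class I cluster of chromosome 9 (3472870 to 5945783) held 173 members in 2473 kb, and 14 other genes that are not pseudogenes. Its peaks found in both replicates were 7 for H3K4me3, 8 for H3K27ac and 11 for CTCF, while the 150 kb on each side together held 9, 9 and 10. The beta-globin genes lie inside it, and HBB and HBE1, which encode haemoglobin chains of red cells, had no peak of any mark within 1 kb of their starts. TRIM21, a cytosolic antibody receptor with ubiquitin ligase activity, had H3K4me3 of 54.2 and 25.05, and its relative TRIM68 had 55.6 and 21.6. The antiviral factor TRIM5 (LOC733579) had 16.3 and 7.21 and TRIM34 (LOC100738479) 21.3 and 12.1. A run of 560 kb in this cluster held 48 OR genes and no peak in any library.

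**Figure D5:**
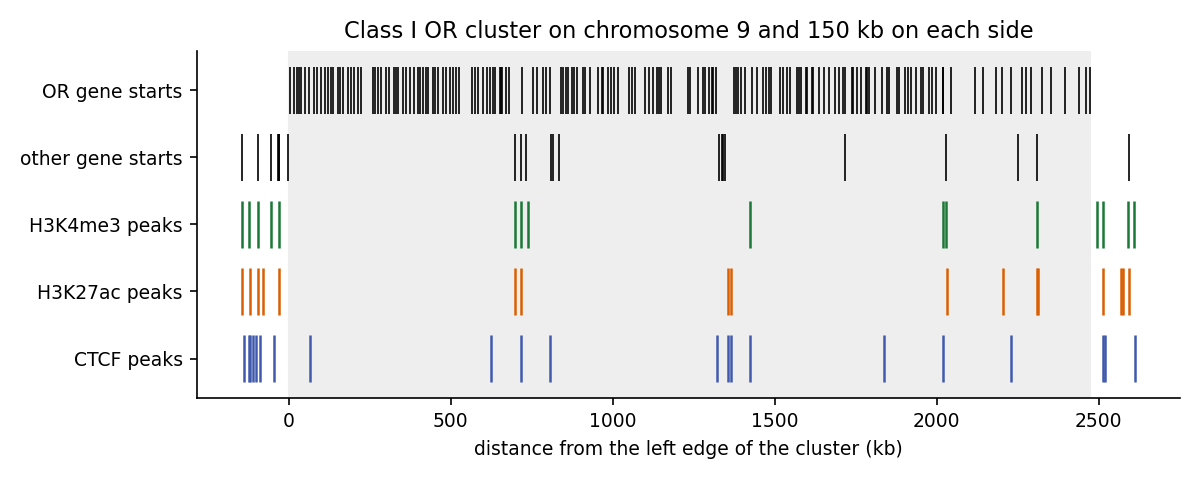
Starts of OR genes and of other genes that are not pseudogenes, and summits of peaks found in both replicates, against the distance in kb from the left edge of the class I cluster on chromosome 9 (grey, 2473 kb long) with 150 kb on each side. Of the 7 H3K4me3 peaks inside, 5 lie within 10 kb of a start of another gene, whereas the 173 OR starts are spread along the whole cluster.

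Other genes inside the clusters carried the histone marks more often than the members around them. Of 41 coding genes that are not OR genes, 12 had H3K4me3 in both replicates, or 29.3%, and 11 had H3K27ac, which is below the 72.5% and 63.9% of such genes in the chromosomes as a whole. By H3K4me3 the strongest were SYDE1 with 80.5 and 30.2, the zinc finger gene ZNF317 with 65.1 and 42.2, and the non-coding pair LOC110259340 and LOC110259339 with 58.0 and 34.8 in 1 shared peak. They were followed by VWA5A with 51.5 and 30.8, TRIM21, TRIM68, ILVBL with 48.3 and 23.1, ZNF641 with 39.5 and 13.5, and LOC110259338 (zinc finger 177-like) with 27.5 and 20.3. All 10 also had H3K27ac in both replicates, and none had CTCF.

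Of the H3K4me3 peaks inside the clusters, 14 of 37 and 15 of 49 lay within 1 kb of the start of a gene that is not an OR gene, 5 and 7 were within 1 kb of an OR start, and 18 and 27 were near neither. The H3K27ac peaks near neither were 41 of 60 and 40 of 60, and the CTCF peaks 69 of 79 and 79 of 89. The share of peaks found again in the other replicate was also compared. For H3K4me3 it was 100% and 75.5% against 91.0% and 77.2%, for H3K27ac 90.0% in both against 86.4% and 81.5%, and for CTCF 94.9% and 84.3% against 95.9% and 85.7%. Their median fold enrichment for CTCF was 22.7 and 20.8, against 19.6 and 19.2 in the rest. For H3K4me3 it was 9.37 and 4.78 against 9.12 and 6.14, and the flanks stood apart with 32.4 and 18.7. Inside the clusters the median was thus above that of the rest in both replicates for CTCF, and above it in 1 replicate and below it in the other for H3K4me3.

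CTCF inside the clusters was examined by sequence, with a 19-base motif learned from the 600 strongest peaks outside clusters and flanks. Within 100 bp of the summit, 92.4% and 94.4% of the CTCF peaks in the clusters held a match, against 87.1% and 85.3% in the rest, and 6.33% and 5.62% of windows 1 kb away from the cluster peaks did. The 6 strongest peaks with a match that were found in both replicates are given. They are the most strongly bound positions with a motif in the clusters. A peak without a match, with its summit at position 61498667 of chromosome 2, had 52.0 and 55.4 and is not among them. The matched 19 bases are in capitals, with 15 bases on each side, on the strand of the motif (Sscrofa11.1). Site 1 is at chr1:236691156-236691204 and site 3 at chr1:236707931-236707979, both on the plus strand. Site 2 is at chr9:51143218-51143266 on the minus strand and site 5 at chr9:51045387-51045435 on the plus strand. Site 4 is at chr14:90949638-90949686 and site 6 at chr5:79234994-79235042, both on the minus strand.
Site 1: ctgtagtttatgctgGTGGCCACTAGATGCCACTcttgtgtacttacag
Site 2: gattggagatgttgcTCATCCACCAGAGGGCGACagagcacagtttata
Site 3: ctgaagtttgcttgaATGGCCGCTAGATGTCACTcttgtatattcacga
Site 4: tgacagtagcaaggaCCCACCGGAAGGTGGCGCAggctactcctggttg
Site 5: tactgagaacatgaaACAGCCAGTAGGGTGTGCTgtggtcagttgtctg
Site 6: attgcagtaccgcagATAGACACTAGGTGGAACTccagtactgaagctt

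Site 1 had fold enrichments of 72.4 and 79.1 and lay 20914 bp from the nearest OR start, that of OR2S2 (LOC100519461). Site 3, with 53.0 and 52.1, lay 4126 bp from the same start. Both are in the cluster next to RECK and 16.8 kb apart, and 16 of the 19 motif positions and 34 of all 49 positions hold the same base. Site 2 had 50.5 and 83.6, and site 5, with 35.3 and 49.0, is the peak at the start of OR148-like. Site 4 had 51.8 and 41.6, 3545 bp from the start of OR13A1, and site 6 had 36.8 and 47.2.

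In all, 75 CTCF peaks of replicate 1 inside the clusters were found in replicate 2, and 70 of them held the motif, 37 on the plus and 33 on the minus strand. They lay in 26 clusters, and 32 were in the 6 largest. Their median distance from the nearest OR start was 7.41 kb. The summit of 5 was within 1 kb of an OR start, of 23 within 5 kb, and of 14 inside an OR gene. Beyond the edges of the 45 clusters of at least 5 genes, the nearest CTCF peak with a motif lay a median 46.6 kb away. It lay within 50 kb at 47 of 90 edges and within 10 kb at 17. Distances from other points of the chromosomes were not measured, so whether the edges are closer to such peaks cannot be judged. The motifs of the peaks on either side pointed towards each other around 6 clusters, away from each other around 13 and the same way around 26. Among 33662 neighbouring pairs outside clusters the shares were 24.5%, 24.5% and 50.98%. Neighbouring clusters can share a flanking peak, and 45 clusters are few.

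Other gene families in clusters had more peaks. Keratin genes (60 in 5 clusters, 1.35 Mb) had 18.5 ± 2.09 H3K4me3, 17.4 ± 0.523 H3K27ac and 28.9 CTCF peaks per Mb (39 in each replicate), and protocadherin genes (54, in 17 clusters of 5.26 Mb) had 17.7 ± 2.69, 23.0 ± 0.269 and 16.7 ± 1.08. At their starts, H3K4me3 in both replicates was found at 6 of 60 keratin and 25 of 54 protocadherin genes, and CTCF at 5 and 20. The starts of keratin genes, most of which are used in epithelia, were thus seldom marked. Their clusters were not below the rest of the chromosomes in H3K4me3 and CTCF, at 17.0 and 17.7 per Mb there. In H3K27ac they were below the rest, which had 32.7 per Mb. Among other chemoreceptors, 23 vomeronasal receptors had H3K4me3 at 1 start and H3K27ac at 1 in both replicates, and 17 type 2 taste receptors had CTCF at 1 start and neither histone mark in both replicates, with H3K27ac at 1 start in replicate 2 alone. The 11 trace amine-associated receptors had no peak.

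Genes that act with the receptors in olfactory neurons were compared in the same libraries. There, 72.5% of the coding genes that are not OR genes had H3K4me3 and 63.9% had H3K27ac in both replicates. Of 11 genes of the transduction pathway, 4 had H3K4me3 in both replicates and 1 H3K27ac. They were GNAL, the olfactory G protein, with 30.0 and 14.5, ADCY3, the adenylyl cyclase, with 46.8 and 14.6 and the only H3K27ac (5.25 and 7.90), the chloride channel ANO2 with 5.46 and 5.67, and the exchanger SLC24A4 with 24.5 and 8.96. The channel subunits CNGA2, CNGA4 and CNGB1, STOML3 and PDE1C had no peak of any mark. OMP, the marker of mature olfactory neurons, had CTCF alone, with 30.4 and 29.6. GNG13 had CTCF of 21.2 and 26.6, and H3K4me3 of 3.21 in replicate 2 alone. Of the receptor trafficking genes, REEP1 had H3K4me3 of 40.7 and 23.4, and RTP1 and RTP2 had no peak. All 16 annotated genes of the transcription and chromatin regulators had H3K4me3 and 15 had H3K27ac, among them the histone demethylase KDM1A with H3K4me3 of 62.3 and 31.7, the H3K9 methyltransferases SETDB1 with 46.6 and 37.5 and EHMT2 with 60.9 and 37.5, and CBX5, the heterochromatin protein HP1 alpha, with 29.1 and 27.2. LHX2, a transcription factor needed for OR expression, had H3K4me3 of 23.5 and 16.1 and no H3K27ac.

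The labelled cell type was checked by its markers, beside the 72.5% with H3K4me3 and 63.9% with H3K27ac among coding genes that are not OR genes. All 14 annotated fibroblast markers had H3K4me3 and H3K27ac in both replicates. Of 9 markers of olfactory sensory neurons, all of them also in the lists above, 2 had H3K4me3 and 1 H3K27ac, of 5 neuronal markers 4 and 1, of 4 blood markers 0 and 1, of 4 endothelial markers 1 and 0, of 5 epithelial markers 5 and 1 and of 4 muscle markers 3 and 2. The part of other cells in the OR results was not tested.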

How the data were processed

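ChIP-seq peaks of H3K4me3, H3K27ac and CTCF in PEFs, with 2 replicates per mark, were analysed as deposited. Per the submitters' notes and the study's methods, the authors used Bowtie2 for alignment, discarded fragments that were duplicates or not uniquely placed, and then called narrow peaks in each library with MACS2. The deposited lists hold a score, a fold enrichment (ratio over the control), −log10 p-values and −log10 q-values, and a summit. A q-value of 0.01 is named in the methods, but the lists run up to 0.0432 to 0.0499, with 0.0565% to 3.06% of peaks above 0.01. All listed peaks were used. The lists were read on Sscrofa11.1, the only build named in the sources, with its RefSeq annotation.

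Members were matched by product or description. A gene start counted as marked when any base of a peak lay within 1 kb of it, and a region was scored by the peaks whose summit it held. Peaks of 2 replicates were matched by an overlap of at least 1 bp. Densities are mean ± SD of 2 replicates, set against that spread, with no test. Peaks outside chromosomes 1 to 18 and X (435 to 633 per list) were left out. The members and all lists were chosen with earlier results of these data known. Genes were named by a set rule: those marked in both replicates in order of mean fold, at most 10 per mark, 8 receptors known outside the nose, the 6 largest clusters, the 3 clusters of highest and of lowest density, and the 10 other genes of highest H3K4me3 in the clusters. The 2 last H3K4me3 members and the last CTCF member, the clusters at CD1E and GABRR3, the runs without peaks, HBB, HBE1, TRIM5 and TRIM34 were named after their values were seen.

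The motif was learned by expectation maximisation on both strands, and a match scored above the level that 10% of windows 1 kb from other CTCF summits reach. In the rest of the chromosomes 1 in 4 CTCF peaks was searched. Uniqueness was sampled every 200 bp in clusters and every 20000 bp in the rest, as 100-base words that occur once in the assembly. Counting, motif search and uniqueness were tested on simulated data. Analyses used Python 3.11, numpy and pandas. Alternatives were other windows, gaps, flanks, peak thresholds and single replicates. The genes of the olfactory neuron lineage are not reported here.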

Additional observations from a re-analysis of the deposited data

How the results depend on the processing

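The density in OR clusters was below that of the rest for all 3 marks under each of 12 alternatives, with ratios of 3.04 to 9.57 for H3K4me3, 4.29 to 13.0 for H3K27ac and 2.73 to 4.78 for CTCF, the lowest of each at a gap of 500 kb, which takes in sequence between clusters (5.58, 7.62 and 6.47 peaks per Mb inside). A −log10 q of at least 5 gave 1.498 H3K4me3 and 2.01 H3K27ac peaks per Mb, peaks found in both replicates 2.42 (H3K27ac) and 3.35 (CTCF), a gap of 50 kb 2.54 and clusters of at least 5 genes 2.56 (H3K27ac). 5 alternatives were added after seeing the data. A q-value of at most 0.01 gave 2.59 H3K27ac peaks per Mb and left the marked members at 12, 8 and 11, as did leaving out the 4 members worded as pseudogenes. Leaving out peaks near starts of other genes gave 1.27 (H3K4me3) and 2.12 (H3K27ac), and unique sequence 3.12 (H3K27ac) and 4.37 (CTCF). Counting models with a shared start once gave 9, 8 and 8 marked members.

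Within 5 kb of the start the marked members were 23 for H3K4me3, 23 for H3K27ac and 37 for CTCF. Within 10 kb they were 41, 46 and 82. The shares of other coding genes were 78.7%, 70.4% and 36.7% at 5 kb and 82.7%, 75.1% and 51.1% at 10 kb. Counting summits alone, which was not done for other genes, left 5 H3K4me3 and 4 H3K27ac members, and a peak in either replicate 13 for H3K27ac. In flanks, H3K4me3, H3K27ac and CTCF were at 22.7, 28.8 and 22.9 per Mb for 100 kb, at 25.4, 26.7 and 27.6 for a gap of 500 kb, and at 17.4 and 18.1 (H3K4me3 and H3K27ac) with the stricter q. With clusters of at least 5 genes they were at 20.2 for H3K27ac and 23.6 for CTCF. Each cause beyond the construction of the alternative was not tested. Including OR pseudogenes gave no value, since no gene annotated as a pseudogene matched by name. No paired analysis was possible because the results come from no test. With 2 replicates and no read counts, differences near the spread, such as H3K4me3 in the flanks, cannot be resolved.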
